A study of Danio rerio with 4 samples.

Results

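The vacuolar-type proton ATPase (V-ATPase) genes were examined in whole zebrafish larvae at 8 dpf, in wt and in *grwd1* crispants. They were proposed with earlier results of these data known, and their members were then taken by name, as every row of the count table whose symbol begins with atp6v0, atp6v1 or atp6ap, together with both copies of *tcirg1*. This gave 29 of 32520 genes, and all 29 passed the low-count filter that left 20479 genes for testing. Zebrafish copies that share a symbol in the name table are told apart by their Ensembl ID. The crispants are F0 larvae injected at the 1-cell stage with Cas9 mRNA and a pair of guides against *grwd1*, a factor of large ribosomal subunit assembly. They are mosaic, so each pool mixes edited and unedited cells, and the wt larvae carry no listed allele or agent. RNA came from whole fish, with 15 larvae pooled per group and 2 libraries per group. Whether both libraries of each group were made from different pools is not stated. The gene tests below set the group difference against scatter estimated from these libraries, which could be technical scatter only.

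The guides are shown because they are the perturbation that every comparison rests on; they are written 5′ to 3′ without a marked part.
grwd1 guide 1: gatacatgcggtaagcggag
grwd1 guide 2: actccaccgacagatcccat

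The V-ATPase is a rotary pump that uses ATP to move protons into endosomes, lysosomes, secretory granules and synaptic vesicles, or out of the cell. Its cytosolic V1 sector (subunits A to H) hydrolyses ATP, and its membrane V0 sector (a, c, c'', d and e) carries the protons, helped by accessory proteins that aid assembly. In the fish larva it is known for acid secretion by ionocytes of the skin, for digestion of absorbed protein in lysosome-rich enterocytes, and, as in other animals, for loading transmitter into synaptic vesicles.

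The targeted gene followed its labels. *grwd1* stood at 25.0 and 24.1 CPM (reads of the gene relative to the TMM-scaled size of the library) in the wt libraries and at 6.40 and 6.34 CPM in the crispant libraries. Depth was 15916216 to 18619802 counts per library, and the depths of the groups overlapped. Counts of replicates differed beyond counting error and over all genes gave a chi-square per degree of freedom of 4.47 for wt and 5.00 for crispants. Over all genes tested, 1839 were higher and 1524 lower in crispants at an adjusted p of 0.05 in edgeR, against 2355 and 1000 without TMM, on library totals alone.

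Of the 29 V-ATPase genes, 7 fell in crispants, 1 rose and 21 did not pass the test. The genes that fell were *atp6v0c* (ENSDARG00000036577), *atp6v1a* (ENSDARG00000076318), *atp6v0a1* (ENSDARG00000015174), *atp6ap2*, *atp6v1b2* (ENSDARG00000043465), *atp6v1c1* (ENSDARG00000023967) and *atp6ap1lb*; the gene that rose was *atp6ap1b*. The falls were modest, to between 68.9% and 82.2% of the wt level. Lower genes were thus 24.1% of the members, beside a background of 7.44% of all genes tested, and the higher gene was 3.45%, beside 8.98%. The background was not matched for level. The median of the mean CPM was 60.4 for the members and 11.1 for all genes tested. A modest change is easier to call at a higher level, so the shares in this paragraph are not like for like. With scaling by library totals alone, 3 members were lower and 1 higher. The median log2 fold change of the members was -0.13, against 0.0046 over all genes tested, and 21 of the 29 had a negative value. Both crispant libraries lay below both wt libraries in 16 members (26.5% of all genes tested) and above them in 6 (28.1%), which makes 22 of 29 without overlap, beside 54.6% of all genes tested. Of the 7 genes that fell, 6 belong to a pair of copies in which the other copy did not pass, which by itself does not show that the copies differed.

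As a whole, the V-ATPase genes summed to 1959 and 1897 CPM in the wt libraries and to 1677 and 1776 CPM in the crispant libraries. The groups did not overlap, and the crispant mean was 89.6% of the wt mean (exact permutation test, two-sided p = 0.333, the smallest that 2 against 2 libraries can give). On library totals alone, without TMM, the members held 0.190% and 0.186% of all counts in wt and 0.174% and 0.180% in crispants. The direction of the sum therefore did not rest on the TMM factors.

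**Figure D1:**
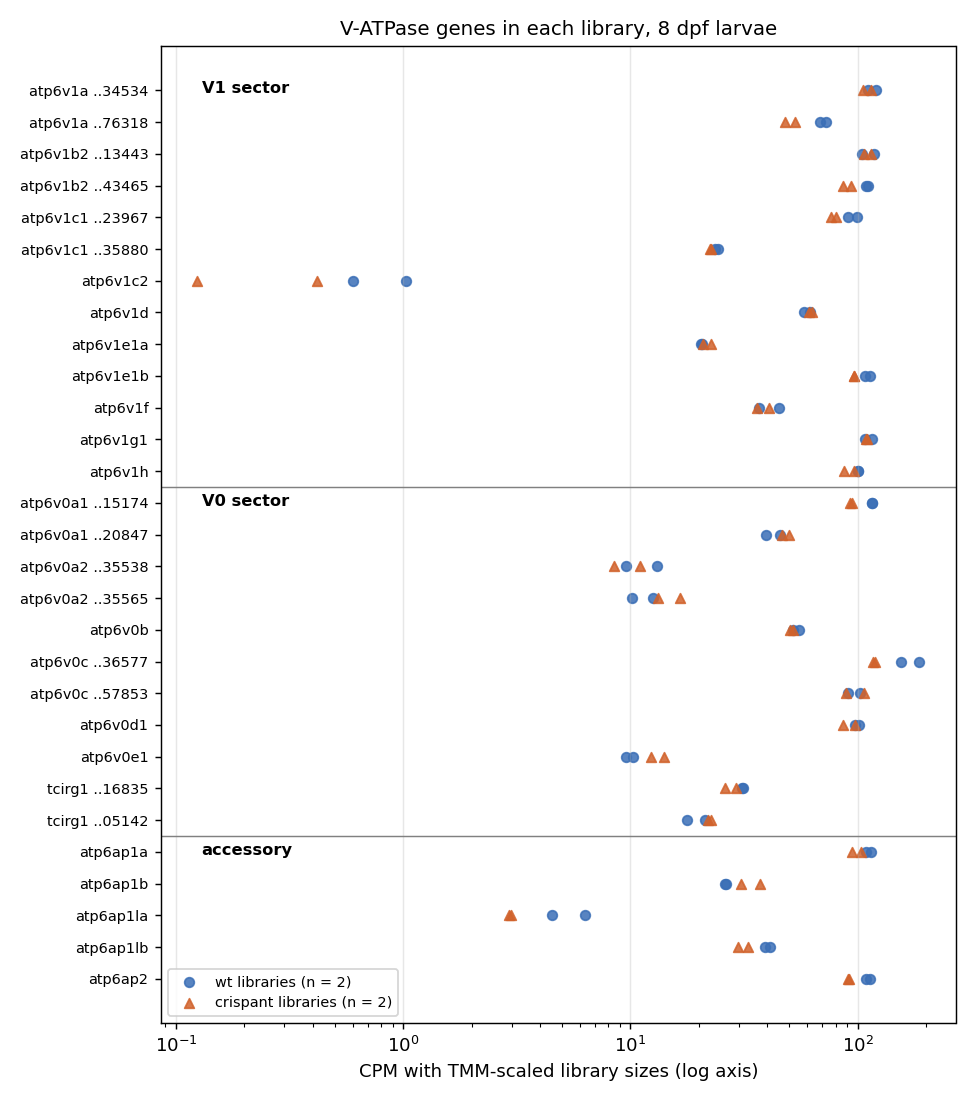
Level of each of the 29 V-ATPase genes in each library, in CPM with TMM-scaled library sizes on a log axis; circles are the 2 wt and triangles the 2 crispant libraries, and the number after a shared symbol is the end of its Ensembl ID. The 4 libraries lie close together for most genes, and the crispant libraries lie to the left of the wt libraries for the *atp6v0c* and *atp6v1a* copies that fell.

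In the V1 sector, 3 of 13 genes fell and 10 did not pass. The A subunit carries the catalytic sites. *atp6v1a* (ENSDARG00000076318) stood at 72.2 and 68.5 CPM in wt and at 47.8 and 52.9 CPM in crispants. Both crispant libraries lay well below both wt libraries, with a log2 fold change of -0.48 (standard error, SE, 0.10, adjusted p = 0.000103 from edgeR). The other *atp6v1a* (ENSDARG00000034534) had 111 and 121 CPM in wt and 106 and 114 CPM in crispants. Its groups overlapped, and its log2 fold change was -0.08 with a 95% interval of -0.24 to 0.08.

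The B subunit forms the catalytic hexamer together with A and also binds nucleotide. *atp6v1b2* (ENSDARG00000043465) stood at 111 and 108 CPM in wt and at 86.1 and 93.1 CPM in crispants, a log2 fold change of -0.29 (SE 0.08, adjusted p = 0.00759 from edgeR). The other row under that symbol (ENSDARG00000013443) had 118 and 105 CPM in wt and 106 and 115 CPM in crispants. This second gene showed overlapping groups, with a log2 fold change of -0.01 (95% interval -0.17 to 0.15). The call of the first was lost under library totals alone (adjusted p = 0.0513 from edgeR), without wt replicate 1 (0.0880) and without crispant replicate 1 (0.0980).

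The C subunit bridges V1 and V0 and leaves the complex when the sectors come apart. *atp6v1c1* (ENSDARG00000023967) stood at 90.9 and 99.0 CPM in wt and at 76.0 and 80.3 CPM in crispants. The groups were separate, with a log2 fold change of -0.28 (SE 0.09, adjusted p = 0.0141 from edgeR). That call was lost under library totals alone (0.0821), and on leaving out wt replicate 2 (0.231) or crispant replicate 1 (0.103). Its copy (ENSDARG00000035880) had 24.3 and 23.7 CPM in wt and 22.3 and 22.6 CPM in crispants, a log2 fold change of -0.09 (95% interval -0.37 to 0.18). *atp6v1c2*, another C gene, was barely expressed, with 16 and 11 counts in wt and 8 and 2 counts in crispants, and did not pass (log2 fold change -1.51, 95% interval -3.20 to 0.17).

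The remaining V1 genes did not pass. *atp6v1e1b*, which encodes the E subunit of the peripheral stalks, was the nearest, at 113 and 108 CPM in wt and 96.1 and 96.6 CPM in crispants (log2 fold change -0.20, adjusted p = 0.0876 from edgeR). Its copy *atp6v1e1a* had a log2 fold change of 0.08, with 95% limits of -0.21 and 0.37. *atp6v1h*, whose subunit in yeast silences the free V1 sector, was at -0.13. *atp6v1d* and *atp6v1f*, of the central stalk, were at 0.04 and -0.10, and *atp6v1g1*, of the peripheral stalks, was at -0.04. Summed over copies, the A genes came to 183 and 189 CPM in wt and 154 and 167 CPM in crispants, while the single D gene came to 58.2 and 62.0 CPM in wt and 60.8 and 63.0 CPM in crispants. The sums of A were thus separate between the groups, and those of D overlapped. Those of B, C, E and H were also separate, at 90.6%, 84.2%, 90.1% and 91.2% of the wt mean, beside 86.1% for A. Those of F and G overlapped. The sums of the V0 subunits were all separate as well, lower for a, c, c'' and d and higher for e. Since the CPM of 54.6% of all genes tested also separated, the separation of sums is not read as a result. The median of the V1 genes was -0.10, and -0.02 under library totals alone.

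**Figure D2:**
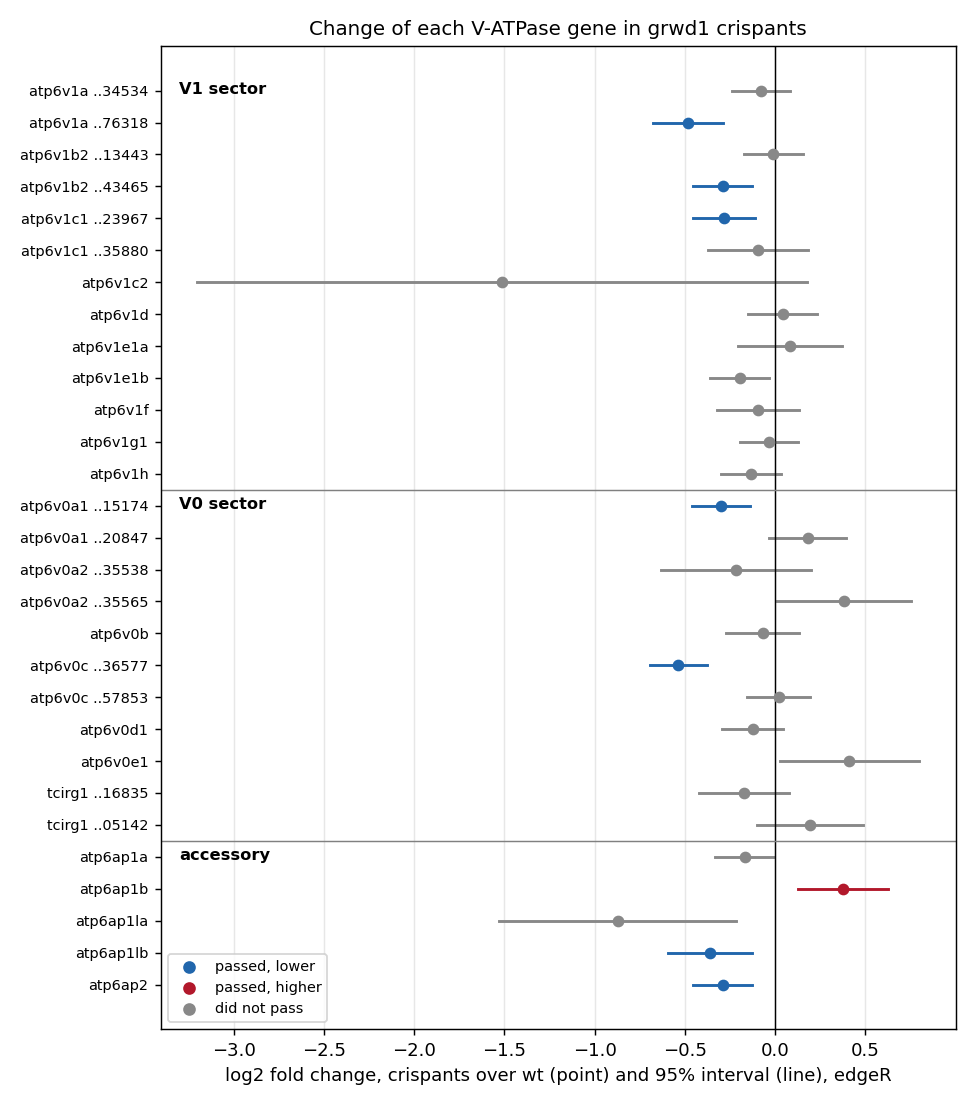
Log2 fold change of each V-ATPase gene, crispants over wt (points), with its 95% interval from edgeR (lines); blue and red mark genes that passed at an adjusted p of 0.05, grey those that did not. The 7 genes that fell lie between -0.54 and -0.28, and *atp6v1c2* has the widest interval.

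In the V0 sector, 2 of 11 genes fell and 9 did not pass. The c subunits form the ring that takes protons across the membrane. *atp6v0c* (ENSDARG00000036577) stood at 187 and 155 CPM in wt and at 119 and 116 CPM in crispants. This was the member with the smallest p, at 68.9% of its wt level (95% interval 61.8% to 76.9%), with a log2 fold change of -0.54 (SE 0.08, adjusted p = 2.13e-07 from edgeR). The wt libraries themselves lay apart, and without wt replicate 1, the higher of them, the log2 fold change was -0.40 (adjusted p = 0.00302 from edgeR). The other *atp6v0c* (ENSDARG00000057853) had 102 and 90.3 CPM in wt and 88.5 and 107 CPM in crispants. Its groups overlapped, at a log2 fold change of 0.02 (95% interval -0.15 to 0.19). *atp6v0b*, which encodes the c'' subunit of the same ring, did not pass, at 54.9 and 52.2 CPM in wt and 50.4 and 51.7 CPM in crispants.

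The a subunit holds the channels through which protons reach and leave the ring, and in mammals its forms direct the pump to different membranes. The a1 form is the main one of mammalian neurons. *atp6v0a1* (ENSDARG00000015174) stood at 115 and 116 CPM in wt and at 94.7 and 92.7 CPM in crispants, with a log2 fold change of -0.30 (SE 0.08, adjusted p = 0.00474 from edgeR). Its groups were tight and separate; the call was lost without wt replicate 2 (adjusted p = 0.0532 from edgeR). The other *atp6v0a1* (ENSDARG00000020847) had 39.3 and 45.3 CPM in wt and 46.4 and 49.6 CPM in crispants. It leaned the other way without passing, at a log2 fold change of 0.18 (95% interval -0.03 to 0.39).

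The other a genes did not pass. The a2 form is known from the Golgi and endosomes of mammals, and its zebrafish copies were at -0.22 (ENSDARG00000035538) and 0.38 (ENSDARG00000035565) on the log2 scale. *tcirg1* encodes the a3 form, which in mammals acts at the bone-resorbing membrane of osteoclasts. Its copy ENSDARG00000016835 had 30.9 and 31.2 CPM in wt and 26.2 and 29.0 CPM in crispants, and its copy ENSDARG00000105142 had 17.7 and 21.3 CPM in wt and 22.6 and 22.1 CPM in crispants. The first lay lower and the second higher in both crispant libraries, but neither passed (adjusted p = 0.399 and 0.434 from edgeR). *atp6v0d1*, which joins the ring to the central stalk, was at -0.13. *atp6v0e1*, a small membrane subunit, was at 0.41 (95% interval 0.02 to 0.80, adjusted p = 0.149 from edgeR), the highest value of the members. The median of the V0 genes was -0.07, but 0.0028 under library totals alone and 0.02 without wt replicate 1, so no direction is given for the sector.

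Among the accessory genes, 2 of 5 fell, 1 rose and 2 did not pass. *atp6ap2*, which encodes the prorenin receptor, a membrane protein needed for V0 assembly, stood at 114 and 109 CPM in wt and at 90.6 and 91.5 CPM in crispants. The groups were tight and separate, with a log2 fold change of -0.29 (SE 0.08, adjusted p = 0.00691 from edgeR); its call was lost without wt replicate 1 (adjusted p = 0.109 from edgeR) and narrowly so under library totals alone. *atp6ap1lb* encodes a protein related to Ac45. It had 41.1 and 39.2 CPM in wt and 29.7 and 33.1 CPM in crispants, a log2 fold change of -0.36 (SE 0.12, adjusted p = 0.0229 from edgeR). Its call was the least stable of those that fell: it was lost with DESeq2 (adjusted p = 0.0837), on library totals (0.0856 from edgeR), and on leaving out wt replicate 1 (0.154), wt replicate 2 (0.0629) or crispant replicate 1 (0.206). Its relative *atp6ap1la* was low, with 99 and 82 counts in wt and 56 and 48 counts in crispants, and missed the threshold (log2 fold change -0.87, adjusted p = 0.0581 from edgeR).

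*atp6ap1b* and *atp6ap1a* encode Ac45, which sits inside the ring of V0. In zebrafish, *atp6ap1b* is known for its part in the ciliated organ that sets left and right. It was the member that rose, from 26.3 and 26.1 CPM in wt to 30.8 and 37.2 CPM in crispants, with a log2 fold change of 0.38 (SE 0.13, adjusted p = 0.0291 from edgeR). The rise leaned on crispant replicate 2: without that library the log2 fold change was 0.23 and the adjusted p was 0.399 from edgeR. Leaving out either wt library also ended the call (adjusted p = 0.109 for replicate 1 and 0.118 for replicate 2, from edgeR), as did DESeq2 (0.146). *atp6ap1a* had 115 and 109 CPM in wt and 94.9 and 104 CPM in crispants and did not pass (log2 fold change -0.17, adjusted p = 0.159 from edgeR). Of the 8 members that passed, *atp6v0c* (ENSDARG00000036577) and *atp6v1a* (ENSDARG00000076318) passed under all 11 alternative fits run at the same threshold.

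Whether copies of 1 subunit differed in their change was tested directly, since a call for 1 copy and none for the other does not show it. Among them, 10 copy pairs were present, and 4 differed in fold change by edgeR's diffSpliceDGE. Over all 2359 names with several copies tested, 7.16% differed, a background that was also not matched for level. The copies of *atp6v0c* differed most clearly. ENSDARG00000036577 held 64.6% and 63.1% of the pair's counts in wt and 57.4% and 52.1% in crispants (adjusted p = 0.00134 from edgeR). This share is one of reads and not of molecules, since transcript lengths were not at hand, and it does not depend on how libraries are scaled.

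For the a1 pair, ENSDARG00000015174 held 74.6% and 71.8% of the counts of *atp6v0a1* in wt and 67.1% and 65.1% in crispants (adjusted p = 0.0188 from edgeR). For Ac45, *atp6ap1a* held 81.4% and 80.7% of the pair's counts in wt and 75.5% and 73.6% in crispants (adjusted p = 0.0145 from edgeR). For the A subunit, ENSDARG00000076318 held 39.4% and 36.2% of the counts of *atp6v1a* in wt and 31.1% and 31.7% in crispants (adjusted p = 0.0423 from edgeR). The groups of shares were separate in these 4 pairs, but also in 5 of the 6 pairs that did not pass. How often shares separate over all copy pairs was not computed, and the CPM of 54.6% of all genes tested separated. The separation is therefore not read as a result. The test had little room: without wt replicate 1 or crispant replicate 2 the number of pairs that differed was 0 (lowest adjusted p among these 4 pairs 0.0531 and 0.110 from edgeR), with wt replicate 2 left out it was 2, and without crispant replicate 1 it was 3. The *atp6v1a* pair did not pass under any of the 6 alternatives run for it: its adjusted p from edgeR was 0.0555 with the replicate block, 0.0606 with no low-count filter and 0.0673 to 0.427 with 1 library left out. The direct test did not find a difference for the copies of *atp6v1b2* (adjusted p = 0.178 from edgeR) or *atp6v1c1* (0.595), although 1 copy of each had passed alone. The pairs of *atp6v0a2*, *tcirg1*, *atp6v1e1* and *atp6ap1l* did not pass either, with adjusted p of 0.221 to 0.448. Reads that match both copies could be split or left out by the counting, so values of close copies are uncertain.

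**Figure D3:**
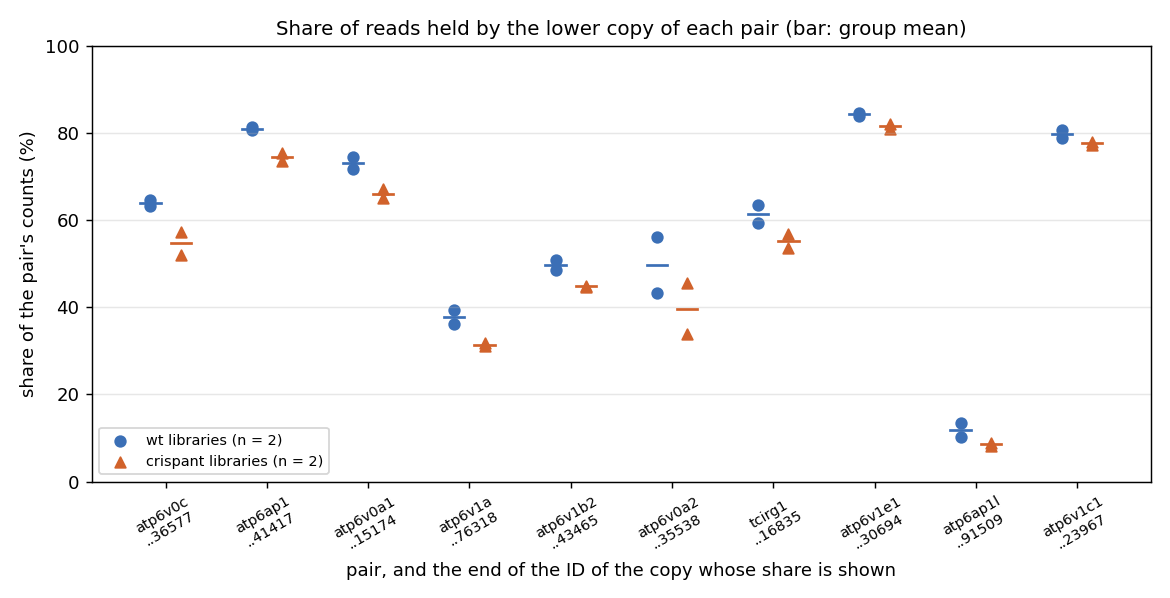
Share of a pair's counts, in percent, held by the copy with the lower fold change, in the 2 wt (circles) and 2 crispant (triangles) libraries; bars are group means, pairs are ordered by p, and the copy shown was picked by its values, which fixes the direction. The 4 pairs at the left passed, with the *atp6v0c* copy that fell going from 63.9% to 54.7% of its pair on average.

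In whole larvae, a lower level may come from fewer cells of a type or from less RNA per cell, and these cannot be told apart. The counts of each list below stand beside a background, not matched for level, of 8.98% of all genes tested higher and 7.44% lower. Neuron and synaptic vesicle markers were lower in the same libraries. Of 29 such genes tested, 21 fell and 8 did not pass, with a median of -0.34, and *sypa*, a synaptic vesicle membrane gene, had the smallest p (-0.47). DESeq2 called 17 of them lower and 0 higher. Their summed level was 4395 and 4410 CPM in wt and 3453 and 3467 CPM in crispants, or 78.6% of wt. The part of neurons in the fall of V-ATPase genes was not tested.

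Cell types that use the V-ATPase for acid transport or digestion had markers that moved the other way. Of 13 genes on the list for H+-ATPase-rich ionocytes, 5 rose and 1 fell, with *rhcg* (ENSDARG00000007080), an ammonium transporter, at 1.22 and *slc4a1* (ENSDARG00000012881), an anion exchanger, at -0.89. The list summed to 517 and 492 CPM in wt and 915 and 945 CPM in crispants. Most of that gain was in 3 *rhcg* copies and *rhbg*; the ionocyte regulators *gcm2*, *foxi3a* and *foxi3b* did not pass, at 0.11, 0.18 and 0.10. Of 15 genes for lysosome-rich enterocytes, 10 rose and 1 fell. *naga*, a lysosomal glycosidase, was at 0.85 and a copy of *snx8* (ENSDARG00000078057), a sorting nexin, at -0.58. The list's sum went from 606 and 643 CPM in wt to 839 and 856 CPM in crispants. Most of that gain was in *lgmn*, *ctsl.1*, *naga* and *ctsbb*. These genes are also on the list of lysosomal hydrolases below, so the rises of the lists are in part the same observation. The others that rose are not on that list: *fabp6*, *cubn*, *slc10a2*, *lrp2b* and a copy each of *dab2* and *snx8*. Osteoclast markers, which summed to 68.2 and 75.7 CPM in wt and to 102 and 109 CPM in crispants, had 5 of 12 higher, led by *ctsk* (0.96), the collagen-cleaving cathepsin; this count was 3 with DESeq2, 2 without wt replicate 1, 3 without wt replicate 2, 4 without crispant replicate 1 and 3 without crispant replicate 2. Most of the gain in the osteoclast sum was in *ctsk*, at 24.1 and 25.7 CPM in wt and 47.7 and 49.2 CPM in crispants. On that list *csf1ra*, *calcr* and *tnfrsf11a* had negative values without passing, at -0.67, -0.32 and -0.17, and the rest were positive. The V-ATPase genes as a group were not higher in these libraries, and the part of these cell types in their level was not tested. The falls of *slc4a1* and *snx8* did not pass with DESeq2. Both rows of each of these genes were on its list, since the name table lacks the copy letter, so the copy that fell may not be the marker. The other *slc4a1* row (ENSDARG00000024560) was at 0.43 and did not pass. The other *snx8* row (ENSDARG00000074842) rose in edgeR, at 0.78. Rises carry the same limit. The 3 *rhcg* rows, both *itgb3* rows of the osteoclast list and this *snx8* row are counted as higher. Some of them may not be the listed copy.

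Among the remaining marker lists, those that follow had more genes higher than lower. Other ionocyte markers had 8 of 22 higher (*atp1a1a.3*, a sodium pump gene, at 0.71), and they summed to 778 and 830 CPM in wt and to 998 and 967 CPM in crispants. Pronephric tubule markers had 7 of 16 higher (*cdh17*, a cadherin of the tubule, at 0.89), with sums of 487 and 528 CPM and of 644 and 649 CPM. Among these higher genes, *cubn* is also counted for lysosome-rich enterocytes and *slc4a4* (ENSDARG00000044808) for other ionocytes. Absorptive enterocyte markers had 17 of 21 higher (*apobb.1*, at 1.17) and 1 lower (*apoa1a*, at -0.33), both apolipoprotein genes, with sums of 3918 and 3932 CPM and of 6274 and 6352 CPM. Melanophore and retinal pigment markers had 3 of 13 higher (*tyr*, which encodes tyrosinase, at 0.68), with sums of 608 and 591 CPM and of 659 and 701 CPM. Macrophage markers had 3 of 13 higher (*cd68* at 0.66) and 1 lower (*marco*, a scavenger receptor gene, at -0.90), with sums of 128 and 120 CPM and of 172 and 173 CPM. The macrophage median was -0.10, and the gain in the sum lay mostly in *cd68* and a copy of *mpeg1* (ENSDARG00000043093). With an unadjusted p under 0.05 in edgeR, 3 macrophage genes were higher and 3 lower. The fall of *marco* was lost with DESeq2, under library totals alone and with any library left out.

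Few genes that act on or with the V-ATPase passed the test, which does not show that the rest were unchanged. Of 14 assembly factors and regulators, 2 fell and 12 did not pass, with a median of -0.02, or 0.05 under library totals alone. The 2 calls are 14.3% of the list, beside 16.4% of all genes tested called in either direction. With an unadjusted p under 0.05 in edgeR, 4 were lower and 0 higher. *rogdi*, of the complex that rejoins V1 to V0, stood at 48.3 and 47.3 CPM in wt and at 35.1 and 41.7 CPM in crispants (log2 fold change -0.32, adjusted p = 0.0342 from edgeR). *oxr1a*, of a family that binds V1, stood at 75.1 and 79.3 CPM in wt and at 61.9 and 66.5 CPM in crispants (log2 fold change -0.27, adjusted p = 0.0322 from edgeR). Both groups of values were separate, but both calls were lost with DESeq2, under library totals alone, without wt replicate 1 and without crispant replicate 1. The list of lysosomal nutrient sensing had 14 genes tested. It held Ragulator and Rag GTPase genes, which pass nutrient signals from the lysosome to mTORC1, and other genes. Of the 14, 1 fell: *flcn* (folliculin), at -0.28, which is neither a Ragulator nor a Rag GTPase gene. Its call was lost with DESeq2, under library totals alone, with the replicate block and with any library left out. The median of the list was 0.099. With an unadjusted p under 0.05 in edgeR, 3 of its genes were higher and 1 lower. *rraga* was not matched to a row. The 6 MiT/TFE genes, transcription factors of lysosomal genes, had 0 calls in edgeR and DESeq2 and 0 with an unadjusted p under 0.05. Their SE ran from 0.16 to 0.67, so changes as large as those of the V-ATPase genes that passed could go uncalled. The 20 endolysosomal channel and exchanger genes had 0 calls in both tools and, unadjusted, 1 higher and 1 lower in edgeR.

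Lysosomal hydrolases and membrane proteins, the other proteins of the compartment that the pump acidifies, rose more often than they fell. Of 50 genes, 23 rose, 1 fell and 26 did not pass, with a median of 0.28, and DESeq2 called 18 higher and 1 lower. *ctsk*, also an osteoclast gene, had the smallest p of those that rose, and *hexa*, a subunit of beta-hexosaminidase, was the gene that fell (-0.42). The list summed to 3998 and 3980 CPM in wt and to 4504 and 4676 CPM in crispants, while the V-ATPase genes summed lower in crispants in the same libraries. This difference between the lists was not tested.

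**Figure D4:**
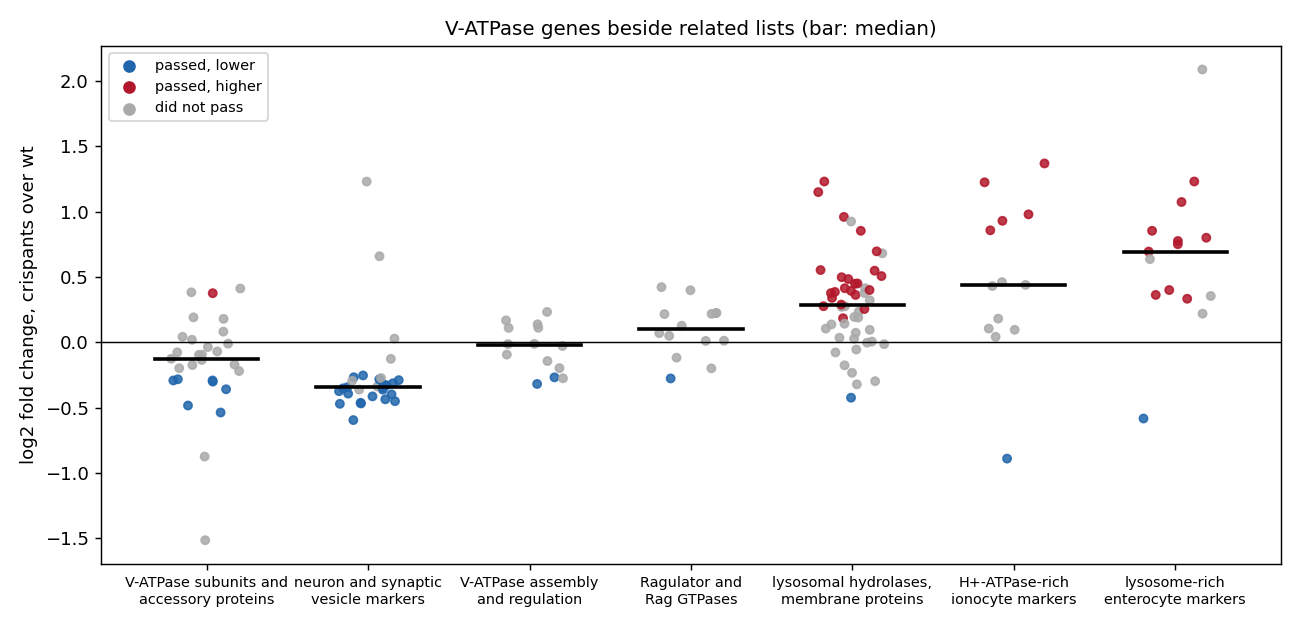
Log2 fold changes, crispants over wt, of the V-ATPase genes and of 6 of the lists described, 1 point a gene with the list's median as a bar; colour marks genes that passed at an adjusted p of 0.05 in edgeR. The median of the V-ATPase genes is -0.13, that of the neuron and synaptic vesicle markers -0.34 and that of the lysosomal hydrolases 0.28.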

How the data were processed

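The labels gave 2 wt and 2 *grwd1* crispant RNA-seq libraries, all of whole larvae at 8 dpf. The deposited values are raw counts of reads per gene. The authors trimmed reads with Trimmomatic 0.39, used HISAT2 for alignment to GRCz11 and featureCounts for counting, per the labels. Not given in the sources used here: annotation release, strand setting and handling of multi-mapping reads.

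Of 32667 table lines, 147 exact repeats were dropped, and 29201 of the 32520 remaining gene IDs had a symbol in the name table. The members were the genes whose symbol begins with atp6v0, atp6v1 or atp6ap, and both rows named tcirg1. Symbols in capitals are shown in lower case. Where that table lacks the letter of a zebrafish copy, list names were matched to all copies. The members and lists were chosen with earlier results of these data known. Every member is named, and those that passed, with their partner copies, are given in full; of each list, the member with the smallest p in each direction is named.

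Genes were filtered with filterByExpr, scaled with TMM factors and compared with the quasi-likelihood test of edgeR 4.0.16 in R 4.3.3, with group as the only term and Benjamini-Hochberg adjustment over all 20479 genes tested. CPM values use TMM-scaled library sizes. Standard errors were obtained as the absolute log2 fold change over the root of the F statistic. Copies of a gene were set against each other with edgeR's diffSpliceDGE over all 2359 names with several tested copies. That test was chosen after seeing the data, and a 2 against 2 exact permutation test cannot go below p = 0.333. The gene test and the copy test were each checked on simulated data. Changes were seeded only in genes above a set level. There the gene test recovered 81% of the seeded log2 changes of 0.5 and 99% of those of 1. That level is above the median of all genes tested and above several members, such as *atp6v0e1*. Recovery below it was not measured. Smaller changes, such as those of most members that passed, were not simulated. The copy test was checked in genes above the same level, at a seeded log2 change of 1 only, which is larger than the gaps of the pairs that passed. The alternatives were each library left out, a replicate block, DESeq2 1.42.0, a threshold of 0.01, other scalings (RLE, totals alone, TMM lacking the 50 most abundant genes) and other filters (none, or 10 or more counts per library). No sequences or coordinates of members were used here, and planned motif and protein comparisons were not run.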

Additional observations from a re-analysis of the deposited data

How the results depend on the processing

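Over all genes, 1105 were higher and 1009 lower with DESeq2, 1193 and 938 at an adjusted p of 0.01, and 2355 and 1000 with library totals alone, a scaling that moved the median of all genes by 0.07 on the log2 scale. With 1 library left out, 1266 to 1375 were higher and 935 to 1327 lower. Of the V-ATPase genes, 0 were higher with DESeq2 (unadjusted p under 0.05: 1 higher and 9 lower) and 0 at an adjusted p of 0.01, and 0 to 1 with 1 library left out; 3 were lower with library totals alone and 4 to 7 with 1 library left out. The members' median was -0.054 with library totals alone and -0.21 to -0.052 with 1 library left out; that of V1 was -0.023 and -0.19 to -0.068, and that of V0 0.0028 and -0.13 to 0.018. Copy pairs that differed numbered 0 to 3 with 1 library left out. Of the members that passed, 0 changed sign under any alternative fit. Over all 29 members, 3 changed sign with library totals alone and 1 to 4 with 1 library left out. A left-out library leaves 1 in its group, which is then assumed to vary like the other group. The causes were not tested.

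Over all genes tested, deviations from the group mean of log2 CPM had a correlation of -0.0067 between libraries that share a replicate number. With 2 libraries per group, replicate 2 mirrors replicate 1 and adds nothing. The value cannot show whether the numbers mark a shared pool or preparation. With the replicate number as a block, 7 V-ATPase genes were lower and 1 higher. Of all genes, 1809 were then higher and 1451 lower, and 3 copy pairs differed. Depth limits *atp6v1c2* most, with 2 to 16 counts a library.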
